A study of Homo sapiens with 4 samples.

Results

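The 47 genes described here encode the machinery that licenses replication origins and copies DNA at the fork. They were taken by name from the 58051 gene identifiers of both deposited tables, and all 47 had counts in every library and passed the filter on low counts. MCF10A, a spontaneously immortalised and non-tumorigenic line of human breast epithelium, was grown with horse serum, epidermal growth factor, hydrocortisone, cholera toxin and insulin. Cells received 50 nM of an siRNA to LMNA, which encodes lamins A and C (siLMNA, 2 libraries), or to bacterial LacZ as control (siLacZ, 2 libraries), and their poly(A) RNA was sequenced at 48 h. Both groups carried the transfection reagent, and whether the LMNA siRNA was 1 sequence or a pool is not given in the sources used here. Whether the 2 libraries of a group are separate cultures is not labelled. The p-values below therefore reflect the spread between these samples alone, and that spread may be technical.

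An origin is licensed in G1, when the origin recognition complex (ORC), CDC6 and CDT1 load the MCM2-7 helicase on DNA. In S phase the CDC7-DBF4 kinase, CDC45, the GINS complex and MCM10 turn the loaded helicase into an active one, and polymerases, the PCNA clamp, its loader RFC and the single-strand binding protein RPA then copy the DNA. Many of these genes are known targets of the E2F transcription factors and are transcribed mainly in cycling cells around the G1/S transition, whereas several ORC subunits are known to be made through most of the cycle.

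For some steps of replication the promoter of a gene with the largest fall is shown, with those of the ORC subunits with the largest and the smallest fall. They were picked by size of change, not by sequence. Each was searched for short sequence words that resemble the E2F binding motif. Each run is the 160 bases before a transcript start listed by RefSeq (GRCh38.p14), on the strand of the gene, 5′ to 3′. Capitals mark the word TTCCCGC, its relative TTGGCGC, its relative TTCGCGC or its relative TTGCCGC on either strand. The regions are chr16:88803629-88803788 (plus strand) for CDT1, chr2:135876444-135876603 (minus) for MCM6, chr22:19479760-19479919 (plus) for CDC45, chr13:33817989-33818148 (plus) for RFC3 and chr1:52404424-52404583 (minus) for ORC1. For ORC4, which has 2 listed starts, they are chr2:148021552-148021711 and chr2:148020738-148020897 (minus). CDC45 has 3 listed starts, of which the one listed first is shown. By the gene bounds of GENCODE 29, the windows of CDT1, CDC45 and ORC4 start 2 lie wholly inside the gene. Those of RFC3, ORC1 and ORC4 start 1 lie partly inside it.
CDT1: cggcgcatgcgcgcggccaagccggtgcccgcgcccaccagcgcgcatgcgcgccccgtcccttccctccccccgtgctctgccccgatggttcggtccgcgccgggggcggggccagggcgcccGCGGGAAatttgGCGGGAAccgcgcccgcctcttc
MCM6: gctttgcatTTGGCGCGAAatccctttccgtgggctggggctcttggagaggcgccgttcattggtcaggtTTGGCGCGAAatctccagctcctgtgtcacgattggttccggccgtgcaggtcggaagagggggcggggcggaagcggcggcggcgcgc
CDC45: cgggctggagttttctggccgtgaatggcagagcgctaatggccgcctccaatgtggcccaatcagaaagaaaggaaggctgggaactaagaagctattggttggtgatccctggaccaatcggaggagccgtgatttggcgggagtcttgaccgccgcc
RFC3: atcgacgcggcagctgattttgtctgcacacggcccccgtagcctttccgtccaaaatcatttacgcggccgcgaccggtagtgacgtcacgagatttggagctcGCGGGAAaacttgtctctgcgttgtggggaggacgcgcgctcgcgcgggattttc
ORC1: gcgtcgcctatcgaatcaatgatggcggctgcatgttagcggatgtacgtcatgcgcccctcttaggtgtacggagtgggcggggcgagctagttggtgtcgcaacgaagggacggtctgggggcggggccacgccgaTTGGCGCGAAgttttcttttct
ORC4 start 1: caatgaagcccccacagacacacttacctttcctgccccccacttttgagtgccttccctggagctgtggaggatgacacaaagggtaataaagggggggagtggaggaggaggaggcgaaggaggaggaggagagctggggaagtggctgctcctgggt
ORC4 start 2: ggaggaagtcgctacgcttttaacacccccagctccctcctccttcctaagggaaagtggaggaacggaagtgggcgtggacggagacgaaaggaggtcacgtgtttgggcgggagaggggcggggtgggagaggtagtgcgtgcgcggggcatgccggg

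CDT1, MCM6, RFC3 and ORC1 hold such a word in these windows, and 4 matches lie in that of MCM6, where pairs of words overlap on opposite strands. CDC45 and ORC4 hold none, which says only that these letters are not in the windows. Near matches were not counted. The windows of CDC45 and of ORC4 start 2 hold gcgggag, which differs in 1 letter from gcgggaa, the form of TTCCCGC on the other strand. RefSeq promoter windows of 300 bases, mostly upstream of the start, were found for 41 of the 47 genes, with 52 starts in all; RPA2, RPA3, GINS4, MCM4, MCM5 and POLD3 were not among them. At least 1 of the words stood in a promoter of 30 of the 41 genes (73.2%), against 15.3% of 27305 genes in the same table and 24.0% of the 11147 tested genes that matched it by symbol. The longer words TTTCCCGC, TTTGGCGC, TTTCGCGC and TTTGCCGC, each of which contains a shorter word, stood in 21 of 41 (51.2%), against 3.99% of all genes in the table and 6.31% of the tested ones. The CCAAT box, searched as CCAAT on both strands, stood in 24 of 41 (58.5%), against 39.7% of all and 42.8% of tested genes (the same order holds for the next motifs), and overlapped an E2F-like word in 4 genes. The CHR motif of many G2 and mitosis genes, searched as TTTGAA and TTCGAA on both strands, stood in 2 of 41 (4.88%), against 19.5% and 16.0%. The E-box CACGTG stood in 7 of 41 (17.1%), against 8.77% and 12.3%, and TATAAA in 2 of 41 (4.88%), against 14.0% and 9.21%. Within the 41, the median log2 fold change was -1.31 for the 30 genes with a shorter E2F-like word and -0.97 for the 11 without, with ranges from -1.93 to -0.37 and from -2.01 to -0.29. These ranges overlap nearly whole, and the words are a description of sequence, not evidence of binding.

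The knockdown was visible in the counts of LMNA itself. LMNA was at 479 and 524 CPM (counts per 1e6 of the library total, scaled by edgeR's TMM factors) in siLacZ 1 and 2 and at 61.0 and 58.0 CPM in siLMNA 1 and 2 (log2 fold change -3.07, SE 0.0768; edgeR adjusted p = 2.96e-15). The libraries held 42.8 to 46.2 (times 1e6) counts each, and the limit that a count of 0 allows, 3 counts, was 0.0634 to 0.0702 CPM on this scale. Defining markers of the line were present: KRT5 and TP63 were at a mean of 5939 and 81.3 CPM in the control. Over all tested genes 27.8% fell and 26.5% rose, which is the background for the marker counts that follow. Of 10 basal mammary markers tested 7 rose, 2 fell and 1 did not pass; the keratin gene KRT14 was at 4701 and 4719 CPM in siLacZ and at 2553 and 2511 CPM in siLMNA (log2 fold change -0.90), and SFN had a log2 fold change of -0.21. Of the 7 leukocyte markers 6 had too few counts to be tested, with CD3E at 0 counts in every library, and the other one, CD14, rose by 0.28 on the log2 scale, from a mean of 25.4 to 30.7 CPM. Of the 9 fibroblast markers COL3A1 had 0 counts in every library, and 5 of 6 tested rose. Among these 5, PDGFRA had 2 and 1 counts in siLacZ, below the limit of 3 counts, and 22 and 10 in siLMNA. The summed level of the 9 went from 203 and 209 CPM in siLacZ to 1045 and 1098 CPM in siLMNA. DCN made up 160 and 163 CPM of this sum in siLacZ and 629 and 638 CPM in siLMNA. The summed level of the 10 basal markers went from 19878 and 21036 to 32128 and 29691 CPM. Of 6 luminal markers tested 2 rose and 4 did not pass, and of 4 endothelial markers 2 rose and 2 did not pass, with summed levels of 675 to 684 and 11.9 to 12.4 CPM in siLacZ and 1195 to 1279 and 14.9 to 15.5 CPM in siLMNA. The part of any of these shifts in the results below was not tested.

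All 47 genes were lower after LMNA siRNA. By edgeR's quasi-likelihood test over all 18540 tested genes (Benjamini-Hochberg adjusted p under 0.05), 47 of 47 fell and 0 rose, against 27.8% of all tested genes that fell and 26.5% that rose. No member had a log2 fold change above 0, so none rose at an unadjusted p under 0.05 either, and DESeq2 gave the same counts of 47 and 0. The 47 genes all fell with DESeq2, which called 20.3% of its genes lower, with RLE (26.7%) or upper-quartile factors (24.7%), library totals (32.7%), no low-count filter (14.4%) or a replicate block (27.5%). All 47 also fell without siLMNA 1 (23.8% of all genes lower) or siLMNA 2 (23.7%), 45 without siLacZ 1 (18.3%) and 43 without siLacZ 2 (15.7%). In all 47 both siLMNA libraries lay below both siLacZ libraries, which held for 38.8% of tested genes. The median log2 fold change of the 47 genes was -1.16, with quartiles at -1.54 and -0.93, beside -0.01 over all tested genes. The range ran from -2.01 (CDC45) to -0.29 (ORC4). At least 2-fold falls were seen for 32 of the 47 genes, against 7.15% of tested genes that passed with such a fall. Against a minimum change of 1.5-fold, 40 of the 47 still passed, beside 9.36% of tested genes; ORC2, ORC3, ORC4, POLA2, RFC1, RPA1 and RPA2 did not. Together the 47 genes held 0.250% and 0.264% of all counts in the control libraries, against 0.112% and 0.115% after LMNA siRNA. In bulk RNA, fewer cells in a phase of the cycle and less RNA per cell cannot be told apart. MKI67, the gene of the proliferation marker Ki-67, moved with them, from 409 and 538 CPM in siLacZ 1 and 2 to 95.6 and 122 CPM in siLMNA 1 and 2 (log2 fold change -2.12, SE 0.118); its part in the result was not tested.

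**Figure D1:**
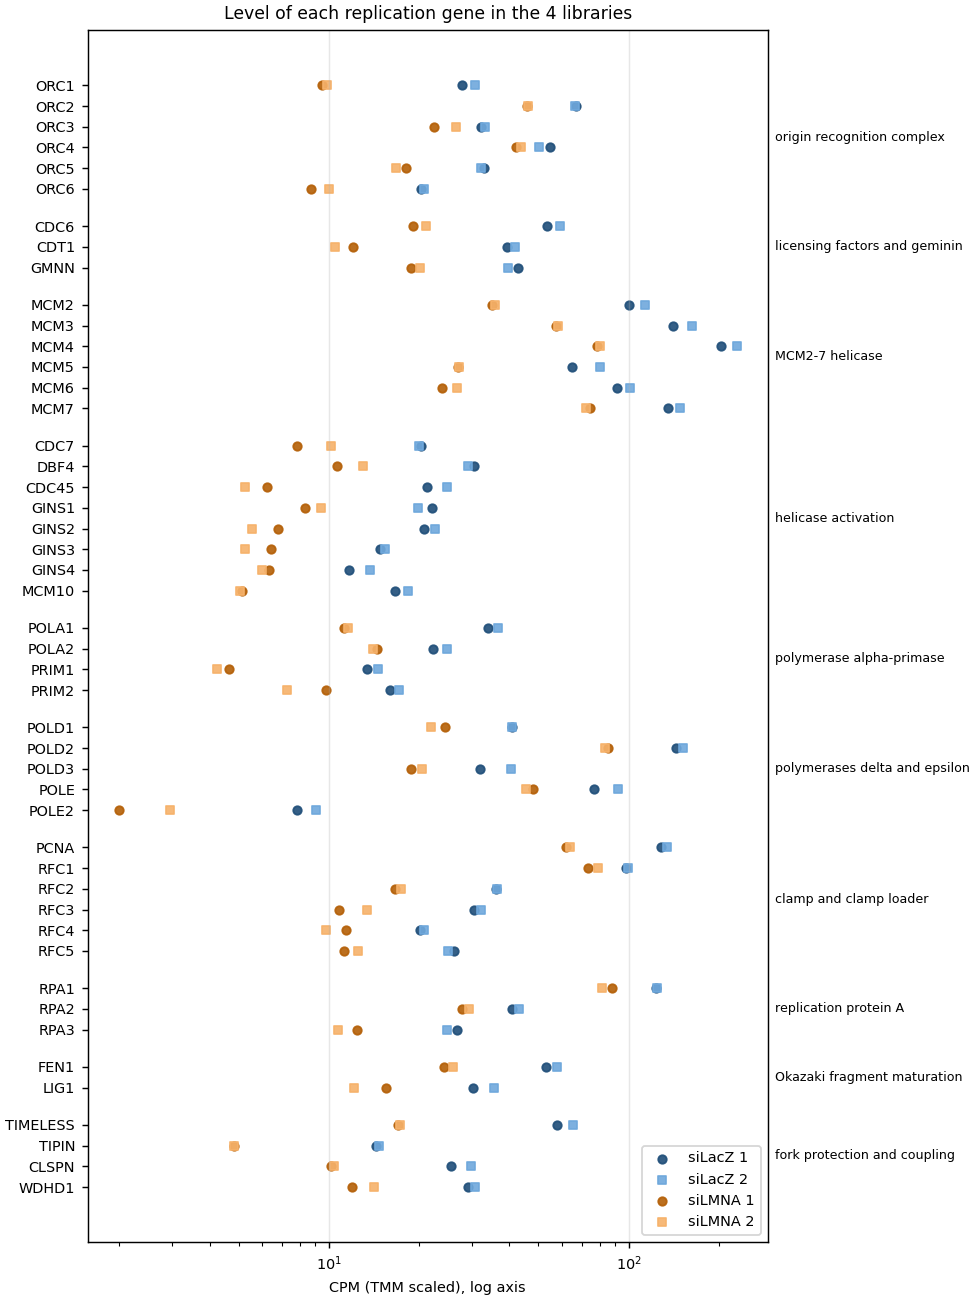
Level of each of the 47 replication genes in CPM scaled by TMM (log axis), with 1 point per library, circles for replicate 1 and squares for replicate 2. For every gene both siLMNA points (orange) lie to the left of both siLacZ points (blue), from POLE2 at the low end to MCM4 at the high end.

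**Figure D2:**
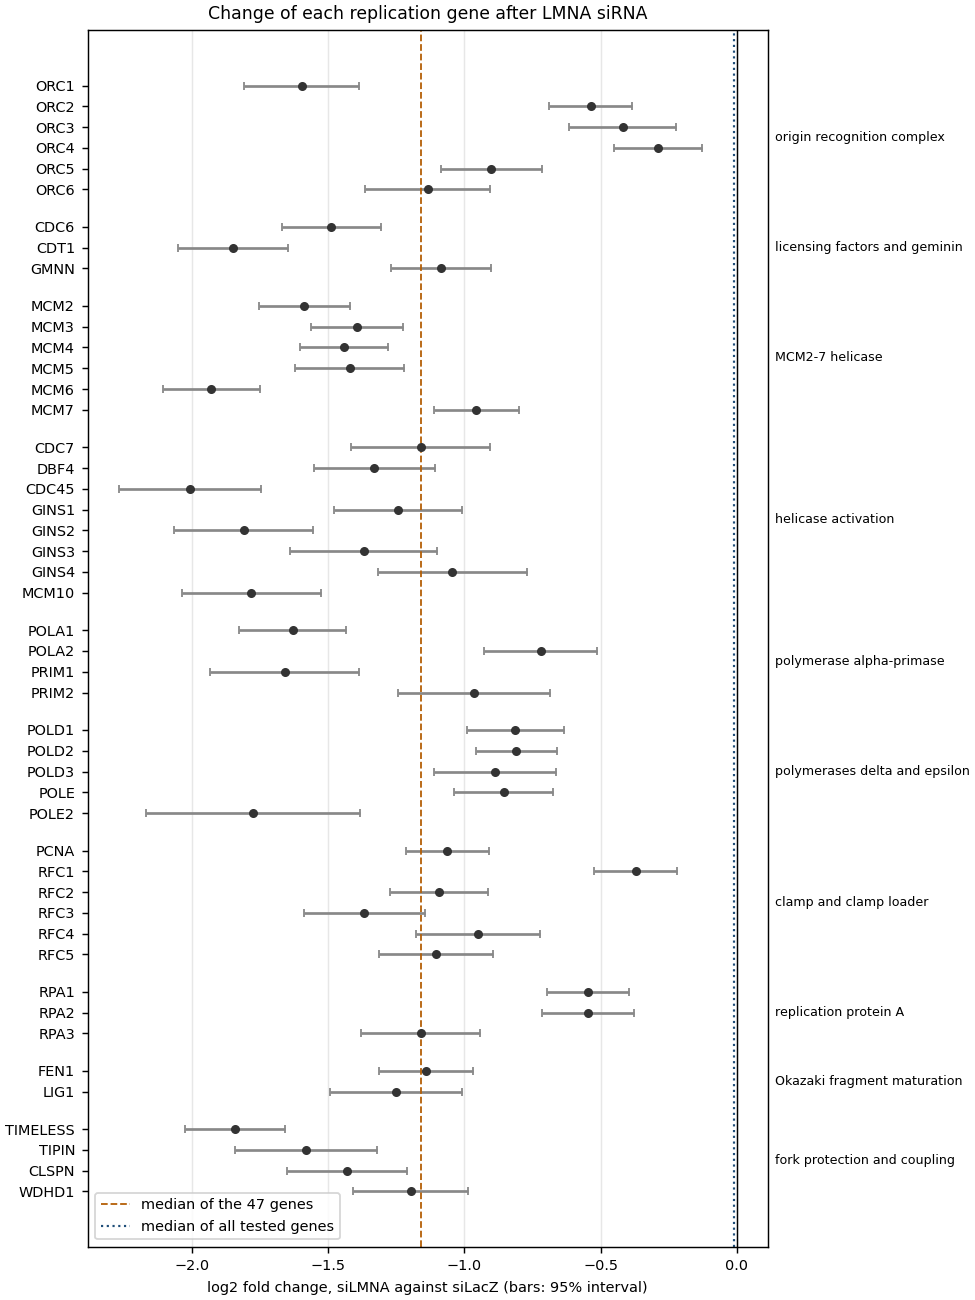
Log2 fold change of each gene, siLMNA against siLacZ, from edgeR's quasi-likelihood fit, with its 95% interval as a bar (n = 2 libraries per group). The dashed line is the median of the 47 genes (-1.16) and the dotted line that of all tested genes (-0.01); ORC2, ORC3, ORC4, RFC1, RPA1 and RPA2 lie nearest to 0.

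The subunits of ORC, which binds origins, changed by unequal amounts. ORC1 (hg38 chromosome 1, 52372829 to 52404459, minus strand), an ATPase subunit that is known to be degraded after G1, was at 27.8 and 30.6 CPM in siLacZ 1 and 2 and at 9.45 and 9.86 CPM in siLMNA 1 and 2. Its log2 fold change was -1.60 (SE 0.0995; edgeR adjusted p = 4.43e-10), a 3.03-fold fall. ORC4 (chromosome 2, 147930397 to 148021604, minus strand), another ATPase subunit, was at 54.5 and 50.4 CPM in the controls and at 42.0 and 43.8 CPM after LMNA siRNA. The groups of ORC4 did not overlap, but its fall of 0.29 on the log2 scale (SE 0.0769; edgeR adjusted p = 0.00402) was the smallest of the 47. Between these, ORC6 (-1.13) and ORC5 (-0.90) fell more than ORC2 (-0.54) and ORC3 (-0.42), by their log2 fold changes. The 95% interval of ORC1, -1.81 to -1.39, lay below those of the other 5 subunits, of which the nearest was that of ORC6, -1.36 to -0.91. Without siLacZ 1 the calls on ORC3 (edgeR adjusted p = 0.0779) and ORC4 (0.0858) were lost, and without siLacZ 2 likewise (0.138 and 0.0531). Exons of ORC4 share 430 bases with ACVR2A, on the opposite strand, which had 461 to 559 counts per library against 1794 to 2439 of ORC4.

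The factors that load the helicase fell more than most ORC subunits, and so did their inhibitor. CDT1 (chromosome 16, 88803213 to 88809258, plus strand), which escorts MCM2-7 to the origin, was at 39.4 and 41.8 CPM in siLacZ and at 12.0 and 10.5 CPM in siLMNA (log2 fold change -1.85, SE 0.0954; edgeR adjusted p = 3.78e-11). CDC6, the ATPase that joins ORC for loading, was at 53.5 and 59.1 CPM against 19.1 and 21.0 CPM (log2 fold change -1.49, SE 0.0863). GMNN encodes geminin, which binds CDT1 and blocks it outside G1, and was at 42.8 and 39.7 CPM against 18.7 and 20.1 CPM (log2 fold change -1.09, SE 0.0861). The groups did not overlap for any of them. There were 0.920 and 1.05 CDT1 counts per GMNN count in siLacZ 1 and 2, and 0.642 and 0.522 in siLMNA 1 and 2. These counts are not scaled for gene length, so only the change of the ratio can be read.

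All 6 subunits of the MCM2-7 ring fell, with MCM6 and MCM7 at the ends. MCM6 (chromosome 2, 135839626 to 135876426, minus strand) was at 91.5 and 101 CPM in siLacZ 1 and 2 and at 23.9 and 26.7 CPM in siLMNA 1 and 2 (log2 fold change -1.93, SE 0.0839; edgeR adjusted p = 4.31e-12). MCM7 was at 135 and 149 CPM against 74.3 and 72.0 CPM (log2 fold change -0.96, SE 0.0738; edgeR adjusted p = 6.67e-09). MCM2, MCM3, MCM4 and MCM5 lay between, with log2 fold changes of -1.59, -1.40, -1.44 and -1.42. Their 95% intervals overlap one another, whereas that of MCM6 (-2.11 to -1.75) lies below those of MCM3, MCM4, MCM5 and MCM7 and that of MCM7 (-1.11 to -0.80) above those of the other 5. MCM7 shares 392 bases of its exons (8.94%) with AP4M1 on the opposite strand; AP4M1 had 519 and 654 counts in siLacZ and 862 and 840 in siLMNA, against 6051 and 7031, and 3177 and 3096 of MCM7, and strand use in the counting is not given in the sources used here. Per kilobase of annotated exon, the control level ran from 9.87 CPM per kb (MCM5) to 41.5 CPM per kb (MCM3), a 4.21-fold range. The length used joins the exons of all annotated transcripts, at 7338 bases for MCM5 and 3650 for MCM3. The range therefore depends on the annotation and is not a measure of subunit proportions. After LMNA siRNA the range of levels was 4.52-fold, from 3.69 CPM per kb (MCM5) to 16.7 CPM per kb (MCM7), which took the place of MCM3 at the top.

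The genes that turn the loaded helicase on included the largest fall of all. CDC45 (chromosome 22, 19479459 to 19520612, plus strand), a subunit of the active CDC45-MCM-GINS helicase, was at 21.2 and 24.8 CPM in siLacZ 1 and 2 and at 6.22 and 5.23 CPM in siLMNA 1 and 2. Its log2 fold change of -2.01 (SE 0.124; edgeR adjusted p = 4.03e-10) is a 4.02-fold fall and lies in the lowest 1.17% of all tested genes. MCM10, which is not a ring subunit and helps to activate the helicase, was at 16.7 and 18.4 CPM against 5.15 and 5.05 CPM (log2 fold change -1.78, SE 0.121). In both genes the higher siLMNA library was at less than 0.5 of the lower siLacZ library. Of the GINS subunits, GINS2 was at 20.8 and 22.5 CPM against 6.78 and 5.56 CPM (log2 fold change -1.81, SE 0.120). GINS4 was at 11.6 and 13.7 CPM against 6.29 and 6.00 CPM (log2 fold change -1.04, SE 0.129), the smallest fall of this step. GINS1 (-1.24) and GINS3 (-1.37) lay between on the log2 fold change scale. CDC7, the kinase that phosphorylates the loaded MCM ring, and DBF4, its activating subunit, fell as well, with log2 fold changes of -1.16 (SE 0.120) for CDC7 and -1.33 (SE 0.105) for DBF4.

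**Figure D3:**
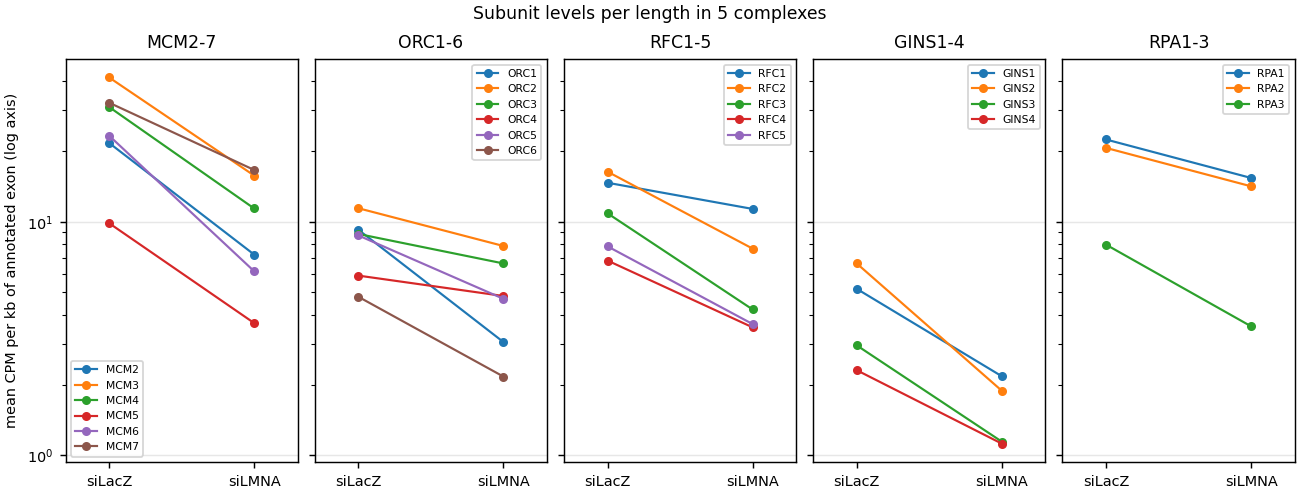
Mean level per kilobase of annotated exon (log axis) of the subunits of 5 complexes in siLacZ and siLMNA (2 libraries each), with 1 line per gene. Lines of MCM7, ORC2, ORC3, ORC4, RFC1, RPA1 and RPA2 are flatter than those of their partners, and ORC1 crosses ORC3, ORC4 and ORC5. Which lines cross depends on the annotated exon lengths.

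Polymerase subunits fell unequally in polymerase alpha-primase and in polymerase epsilon. Polymerase alpha-primase starts each new strand. POLA1, its catalytic subunit, was at 34.1 and 36.7 CPM in siLacZ 1 and 2 and at 11.2 and 11.6 CPM in siLMNA 1 and 2 (log2 fold change -1.63, SE 0.0926), and POLA2, its regulatory subunit, at 22.2 and 24.7 CPM against 14.5 and 14.0 CPM (log2 fold change -0.72, SE 0.0977). The primase subunits PRIM1 (catalytic) and PRIM2 (regulatory) fell too, with log2 fold changes of -1.66 (SE 0.130) for PRIM1 and -0.97 (SE 0.132) for PRIM2, and the call on PRIM2 was lost without siLacZ 2 (edgeR adjusted p = 0.0604). Exons of PRIM1 share 33 bases with NACA on the same strand, which had 18701 to 29018 counts per library against 182 to 692 of PRIM1. In polymerase epsilon, which copies the leading strand, the subunit gene POLE2 was at 7.85 and 9.09 CPM against 1.99 and 2.95 CPM (log2 fold change -1.78, SE 0.186). Its catalytic partner POLE was at 76.8 and 92.0 CPM against 47.9 and 45.5 CPM (log2 fold change -0.86, SE 0.0861). The POLE2 value rests on 85 and 127 counts in siLMNA 1 and 2, the lowest counts among the 47. The polymerase delta genes POLD1, POLD2 and POLD3, of the enzyme that copies the lagging strand, fell by similar amounts, with log2 fold changes of -0.81, -0.81 and -0.89 and overlapping intervals. POLD4, a further delta subunit gene outside the 47, did not pass (log2 fold change 0.12, SE 0.176). It was at 4.87 and 4.78 CPM in siLacZ 1 and 2 and at 6.10 and 4.37 CPM in siLMNA 1 and 2.

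PCNA, the sliding clamp that holds polymerases on DNA, had the highest level per kilobase of annotated exon of the 47 genes. It was at 128 and 134 CPM in siLacZ 1 and 2 and at 61.7 and 63.9 CPM in siLMNA 1 and 2 (log2 fold change -1.06, SE 0.0713; edgeR adjusted p = 1.16e-09), or 89.2 against 42.7 CPM per kb. Of its loader, RFC1, the large subunit that defines the replicative form, was at 97.8 and 99.7 CPM against 73.3 and 79.2 CPM (log2 fold change -0.37, SE 0.0723; edgeR adjusted p = 0.000303). RFC1 passed the test with groups that did not overlap, but the call was lost without siLacZ 2 (edgeR adjusted p = 0.0634). RFC3, a small subunit, was at 30.4 and 32.1 CPM against 10.8 and 13.4 CPM (log2 fold change -1.37, SE 0.105). The other small subunits RFC2, RFC4 and RFC5, which like RFC3 also serve in other clamp loaders, had log2 fold changes of -1.09, -0.95 and -1.10. The interval of RFC1, -0.53 to -0.22, lay above those of all 4 small subunits. In the controls RFC2 was above RFC1 per kilobase (16.4 against 14.7 CPM per kb). After LMNA siRNA RFC1 was above RFC2 (11.4 against 7.68 CPM per kb). These orders depend on the annotated exon lengths.

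Of the RPA subunits, which coat single-stranded DNA, RPA3 fell most. It was at 26.9 and 24.8 CPM in siLacZ 1 and 2 and at 12.4 and 10.7 CPM in siLMNA 1 and 2 (log2 fold change -1.16, SE 0.103). RPA1 and RPA2 each fell by 0.55 on the log2 scale (SE 0.0714 and 0.0803); RPA1 was at 123 and 124 CPM against 87.7 and 81.5 CPM. Exons of RPA3 share 118 bases with UMAD1 on the opposite strand, which had 472 and 508 counts in siLacZ and 151 and 191 in siLMNA, against 1201 and 1171, and 529 and 460 of RPA3. The enzymes that finish Okazaki fragments both fell: the log2 fold change was -1.14 (SE 0.0816) for FEN1, the flap endonuclease, and -1.25 (SE 0.114) for LIG1, DNA ligase I. FEN1 was at 52.9 and 57.5 CPM against 24.2 and 25.9 CPM, and LIG1 at 30.3 and 35.6 CPM against 15.6 and 12.2 CPM.

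The genes that protect the fork and couple its parts all fell by more than 2-fold. TIMELESS, which stabilises the fork with TIPIN, was at 57.8 and 65.1 CPM in siLacZ 1 and 2 and at 17.0 and 17.3 CPM in siLMNA 1 and 2 (log2 fold change -1.84, SE 0.0861; edgeR adjusted p = 1.03e-11). TIPIN was at 14.3 and 14.6 CPM against 4.84 and 4.84 CPM (log2 fold change -1.58, SE 0.123). CLSPN encodes claspin, an adaptor between the fork and the CHEK1 kinase, and fell by 1.43 on the log2 scale (SE 0.104). WDHD1, which links polymerase alpha to the helicase, had the smallest fall of these, at 29.0 and 30.6 CPM against 11.9 and 14.1 CPM (log2 fold change -1.20, SE 0.100). Their summed level after LMNA siRNA was 33.9% of the control, the lowest share of the 10 role groups; the highest were 63.9% for ORC and 65.2% for RPA.

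Ratios of counts between partners in the same library do not depend on the scaling between libraries. For 9 pairs, made after values were seen mostly from the subunits that fell most and least in a complex, the ratio was lower in both siLMNA libraries than in both siLacZ libraries. There were 0.510 and 0.608 ORC1 counts per ORC4 count in siLacZ 1 and 2, and 0.225 in both siLMNA 1 and siLMNA 2. There were 0.677 and 0.681 MCM6 counts per MCM7 count in siLacZ, and 0.322 and 0.371 in siLMNA. RFC3 over RFC1 was 0.311 and 0.322 against 0.147 and 0.169. Mean ratios in siLMNA were 0.403 (ORC1 over ORC4) to 0.652 (RPA3 over RPA1) of those in siLacZ over the 9 pairs. The pairs were chosen for their difference, so no test is given.

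**Figure D4:**
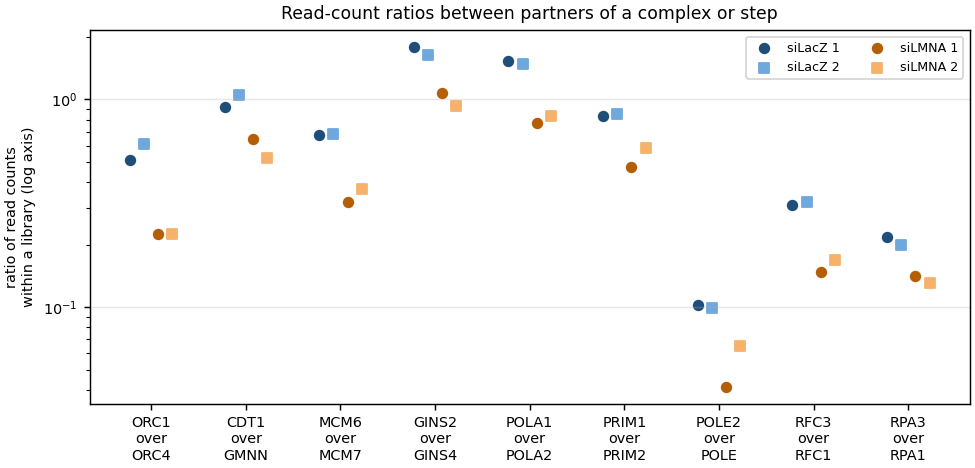
Ratio of read counts between 2 partners within each library (log axis) for 9 pairs, with 1 point per library. In each pair both siLMNA points (orange) lie below both siLacZ points (blue), as for MCM6 over MCM7 at 0.677 and 0.681 against 0.322 and 0.371. The pairs were picked for their difference after values were seen, so no test is given.

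Libraries of a group differed in these genes by less than the groups did. In the controls 38 of the 47 genes were higher in siLacZ 2 than in siLacZ 1, with a median ratio of 1.06 and a range from 0.896 (GINS1) to 1.27 (POLD3), while 48.5% of all tested genes were. MKI67 was also higher in siLacZ 2, at 538 against 409 CPM. In siLMNA 28 of the 47 were higher in library 2, with a range from 0.740 (PRIM2) to 1.49 (POLE2), while 46.4% of all tested genes were. Across the 47 genes the control level per kilobase and the log2 fold change had Pearson's r = 0.12 and Spearman's rho = 0.10, a description over genes measured in the same 4 libraries.

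Other genes of replication and its control were read from 7 lists with 97 genes, of which 95 were tested. Of these 68 fell, 7 rose and 20 did not pass, with a median log2 fold change of -0.67. Of all tested genes 27.8% fell and 26.5% rose, the background for each of the lists below. Of 31 other initiation and fork genes 26 fell, 2 rose and 3 did not pass (median -0.89). ASF1B (-1.61) and DSCC1 (-1.59), a histone chaperone and a subunit of an alternative clamp loader, had the largest falls by log2 fold change. ASF1A, the paralog of ASF1B, was at 23.5 ± 0.714 CPM in siLacZ and 40.4 ± 1.26 CPM in siLMNA (SD, n = 2) and rose by 0.78 on the log2 scale (SE 0.0817).

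Of 10 genes that turn licensing factors over 8 fell, 1 rose and 1 did not pass (median log2 fold change -0.34). FBXO5 (EMI1), an inhibitor of the anaphase-promoting complex, and DTL (CDT2), which directs CDT1 to destruction, had log2 fold changes of -1.29 and -1.26. FZR1 (CDH1 of the anaphase-promoting complex), which helps to destroy geminin, was at 49.5 ± 2.22 CPM in siLacZ and 95.2 ± 5.61 CPM in siLMNA (SD, n = 2) and rose by 0.94 on the log2 scale (SE 0.0759; edgeR adjusted p = 1.16e-08). Of 11 checkpoint and topoisomerase genes 7 fell, 1 rose and 3 did not pass; TOP2A and TOP1 had log2 fold changes of -1.70 and -1.16, and RAD17 one of 0.23. Of MCM8, MCM9 and MCMDC2, relatives of the MCM ring subunits, MCM8 (-1.24) and MCM9 (-0.80) fell by these log2 fold changes and MCMDC2 did not pass.

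Most repair and translesion polymerases did not pass the test. Of 12 such genes 4 fell, 0 rose and 8 did not pass (median log2 fold change -0.08), beside the 27.8% of all tested genes that fell. POLQ and PRIMPOL had the largest falls, with log2 fold changes of -1.52 and -0.999. Of 10 genes of mitochondrial DNA replication 8 fell, 1 rose and 1 did not pass (median -0.56); MGME1 and TFAM had log2 fold changes of -1.28 and -1.19, and POLG, the mitochondrial polymerase, one of 0.20. Of 18 E2F and cell cycle genes 13 fell, 2 rose and 3 did not pass (median -0.96). E2F2, an activating E2F, had the largest fall, by 2.20 on the log2 scale (SE 0.160), with 14.3 ± 2.97 CPM in siLacZ and 3.10 ± 0.251 CPM in siLMNA (SD, n = 2). CDKN1A, the cyclin-dependent kinase inhibitor p21, was at 200 and 206 CPM in siLacZ 1 and 2 and at 622 and 541 CPM in siLMNA 1 and 2 (log2 fold change 1.52, SE 0.0756), and E2F3 rose by 0.46 on the log2 scale. The differences between lists were not tested.

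**Figure D5:**
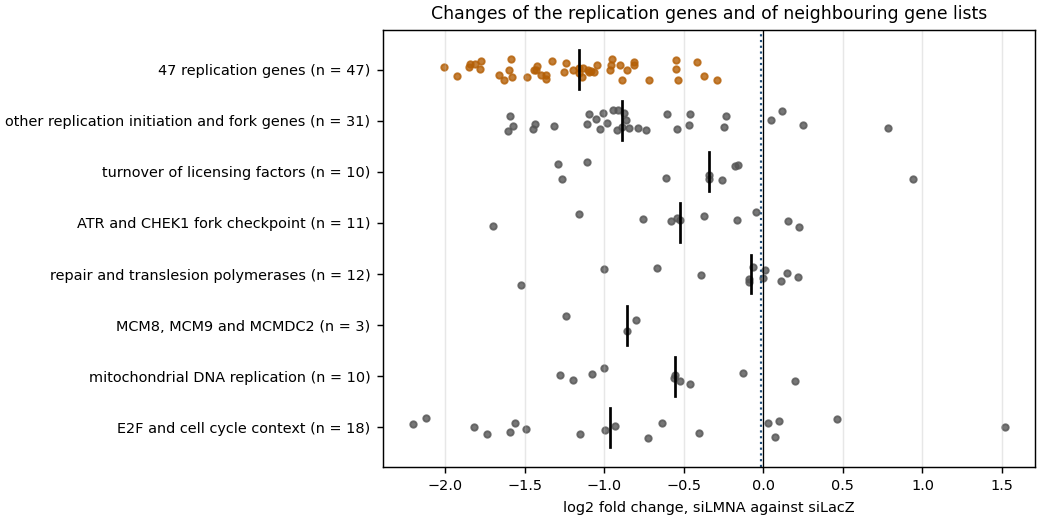
Log2 fold change of each gene, siLMNA against siLacZ, for the 47 replication genes (orange) and for 7 lists of related genes (grey), with black bars at the medians and a dotted line at the median of all tested genes. The 47 genes lie between -2.01 and -0.29, while the 12 repair and translesion polymerases have a median of -0.08.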

How the data were processed

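Poly(A) RNA of 4 MCF10A libraries was measured, and samples were grouped by their titles. Genome build hg38 was used, per the submitters' processing notes. Aligner, counter, annotation and strand setting were not given in the sources used here. Per the file headers, the authors deposited raw read counts per gene in 2 tables, each of 1 siLacZ and 1 siLMNA library with the same number. The deposited normalized values, a signal, were each count multiplied by a factor of its library, and the authors' deposited log2 fold change compares 2 libraries without replicates; both were used only to check rows (relative tolerance 1e-06; log2 tolerance 0.05 above 20 reads). In 6 genes (CCNB1, CDH1, CLDN1, OCLN, TWIST1 and ZEB1) counts and normalized values contradicted each other, and these were left out; all 47 replication genes passed both checks. The 3 unnamed columns were not used.

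Counts were tested with edgeR 4.0.16 (R 4.3.3): TMM factors, filterByExpr, quasi-likelihood F test with the group as the only term, Benjamini-Hochberg adjustment over 18540 genes at 0.05. A standard error is the log2 fold change divided by the square root of F. Counts were also simulated for the 18540 genes with a common dispersion, and 200 genes were changed, as many up as down. The fit recovered 99% of 2-fold and 100% of 4-fold changes, with 16 false calls. In the real data far more genes changed and dispersion may differ between genes, so this run does not measure the error of the calls above. Within siLacZ and siLMNA the 2 libraries differed beyond counting noise, with chi-square over degrees of freedom at 8.42 and 6.42. Of counts from 1 to 20, 68.5% to 70.0% were even numbers, for which no cause was tested. Whether a count is a read pair or 1 mate of a pair is not stated in the labels, so counts may not be independent fragments; a floor of 3 counts covers counting error only and would be too low if mates were counted separately. GENCODE 29 gave coordinates and exon length for all 47 genes. The length joins the exons of all annotated transcripts of a gene, not those of the transcripts expressed. Levels per kilobase of different genes are therefore comparable only roughly. Exon overlaps with other counted genes were not limited to those named above. On the opposite strand, RFC5 shares 186 bases with WSB2 (4832 to 6142 counts per library) and FEN1 166 bases with TMEM258 (1162 to 1516). DBF4 shares 142 bases with SLC25A40, which had 1139 and 1167 counts in siLacZ and 335 and 388 in siLMNA. RefSeq promoters were matched by symbol, and the last 30 bases of 46 of 52 were found in a GENCODE transcript of the same gene.

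The replication genes and the lists were chosen with earlier results of these data known. All 47 genes are reported. From each list the text names up to 2 genes per direction with the largest change that passed at a mean of at least 5 CPM. POLD4 and MCMDC2 are named besides, though they did not pass. Results for some list genes are not reported here. Of 97 listed genes 1 has no row under its older symbol and ATRIP has 2 rows, and neither was used. Alternatives were RLE and upper-quartile factors, library totals, DESeq2 1.42.0, no low-count filter, a minimum change of 1.5-fold, a replicate block, each library left out, and contradicting rows kept.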

Additional observations from a re-analysis of the deposited data

How the results depend on the processing

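All 47 replication genes kept a log2 fold change below 0 under every alternative run. All 47 passed the test under RLE and upper-quartile factors, library totals, DESeq2, no low-count filter, the replicate block and contradicting rows kept. Between 43 and 47 passed with 1 library left out, the fewest without siLacZ 2 (ORC3, ORC4, PRIM2 and RFC1 lost) and 45 without siLacZ 1 (ORC3 and ORC4 lost), and their median log2 fold change then ranged from -1.23 to -1.14. With library totals only, that median was -1.26 and 4 pathway list genes rose in place of 7. Against a minimum change of 1.5-fold, 1735 of all tested genes fell and 2111 rose, in place of 5157 and 4911, and 44 pathway list genes fell and 3 rose, in place of 68 and 7, and 40 of the 47 replication genes passed; a stricter null calls fewer genes by construction. With 1 library left out, 3121 to 4696 of all tested genes fell and 3182 to 4283 rose, the fewest without siLacZ 2 (fewer samples), and the lone library of a group is then assumed to vary like the other group. With the replicate number as a block, 5092 genes fell and 4870 rose; deviations of same-numbered libraries from their group means had a correlation of -0.03 over 18540 genes, so the numbers were not taken as pairs. With 2 libraries per group the errors of POLE2 and of other genes at low counts are the widest.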
